A study of Mus musculus with 15 samples.

Results

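Genes for subunits and partners of the proteasome were followed in mouse quadriceps muscle. They were the protein-coding genes whose symbol begins with Psma, Psmb, Psmc, Psmd or Psme followed by a digit, and 45 of the 39179 genes in the count files met this rule in all 15 mice. The mice were C57BL/6 animals of 2 genotypes and 2 ages: wild-type mice (WT) with unaltered Mrps5, and mice in which both copies of this gene carry the V338Y exchange (V338Y). MrpS5 is a protein of the small subunit of the mitochondrial ribosome, and the exchange is known to raise errors of mitochondrial translation. There were 4 WT and 4 V338Y mice at 3 mo, and 3 WT and 4 V338Y mice at 19 mo. Each mouse gave 1 RNA-seq library from whole muscle, which holds fibres together with vessels, connective tissue and blood, so that fewer cells of a type and less RNA per cell cannot be told apart.

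The proteasome degrades proteins that have been marked with ubiquitin. Its 20S core is a barrel of stacked rings, in which alpha subunits form the gate and beta subunits form the chamber where peptide bonds are cut. The 19S particle caps the core: its base holds a ring of ATPases that unfolds substrates, and its lid removes ubiquitin. Under interferon-gamma, and constantly in many immune cells, the catalytic subunits encoded by Psmb6, Psmb7 and Psmb5 are replaced in new cores by those encoded by Psmb9, Psmb10 and Psmb8, which gives the immunoproteasome and its supply of peptides for MHC class I. In muscle the proteasome is known for the breakdown of myofibrillar proteins, for instance during atrophy.

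By role, the 45 genes comprised 8 alpha subunits, 7 constitutive beta subunits, the 3 immune beta subunits Psmb8, Psmb9 and Psmb10, and the thymus subunit Psmb11. The 19S particle was represented by 6 base ATPases, 3 further base subunits and 8 lid subunits. There were 3 chaperones of base assembly (Psmd5, Psmd9 and Psmd10) and 4 other activators or caps of the core (Psme1 to Psme4). Another 2 matched by symbol only: Psmc3ip, a factor of meiotic recombination, and Psme2b, a near copy of Psme2 whose reads may not be told apart from its own. Psma8, the alpha subunit of male germ cells, had 0 to 5 counts in a mouse, and Psmb11 had 2 counts in all 15 mice together, so neither passed the filter on low counts. The other 43 were tested in every comparison. The members lie on 16 chromosomes, with 10 of them on chromosome 11. An annotated gene overlaps 9 members on the same strand and 19 on the opposite strand.

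Between 8250653 and 18968132 counts were assigned to genes in a mouse. The methods name female mice for 3 of the 4 groups, but Xist, which is transcribed from the inactive X chromosome, ranged from 0 to 0.575 CPM in young animals and from 506 to 631 CPM in old ones. The Y-linked Ddx3y was at 163 to 202 CPM at 3 mo and at no more than 0.0827 CPM at 19 mo. Age and sex therefore cannot be told apart in the age comparisons, whereas both genotypes of an age were alike in these genes. CPM are counts scaled to library size with TMM factors over all 15 mice. The summed level of 13 leukocyte genes was 92.5 to 160.1 CPM at 3 mo, 156 to 197 CPM in WT and 190.4 to 267 CPM in V338Y mice at 19 mo. That of 5 endothelial genes was 148.6 to 187 CPM at 3 mo and 201 to 334 CPM at 19 mo, with no overlap, and 2 of the 5 were called higher with age in WT and 3 in V338Y mice. The sums of 5 adipocyte genes (105 to 773 CPM) overlapped between ages in each genotype. Those of 5 fibroblast genes overlapped in WT mice, at 978 to 1473 CPM at 3 mo and 860 to 1173 CPM at 19 mo. In V338Y mice the fibroblast sums did not overlap, at 1429 to 1477 CPM at 3 mo and 662 to 1422 CPM at 19 mo. The sum of 8 muscle fibre genes was 270421 to 332790 CPM at 3 mo, 243978 to 299451 CPM in WT and 177020 to 279986 CPM in V338Y mice at 19 mo. Mouse 5 of the 19 mo V338Y mice stood apart with 606 CPM over 7 neutrophil genes, against at most 25.6 CPM in the other 14, and with 783 CPM over 5 erythroid genes. Mouse 2 of the same group had 433 CPM over the erythroid genes, and the remaining 13 mice had 97.2 to 322 CPM. In WT mice the erythroid sums did not overlap between ages, at 157 to 322 CPM at 3 mo and 97.2 to 151 CPM at 19 mo.

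The subunits differed in level by more than an order of magnitude. Per kilobase of the principal transcript, averaged over all 15 mice, the constitutive beta subunits were at 34.3 to 134 CPM/kb, the alpha subunits at 23.5 to 79.2, the base ATPases at 44.8 to 87.9 and the lid subunits at 23.1 to 96.0. Psmb7 (134 CPM/kb), which cleaves after basic residues, and Psmb6 (114 CPM/kb), which cleaves after acidic residues, were the highest of the 45. The immune subunits were at 5.17 CPM/kb (Psmb10), 3.72 (Psmb8) and 2.10 (Psmb9), and the base chaperones at 3.77 to 4.58. Psme4 encodes PA200, a large cap that binds the core in place of the 19S particle, and it took the most counts of any member and was at 95.8 CPM/kb. Within a group the constitutive subunits varied little, with a median coefficient of variation of 5.76 to 9.43% over the 4 groups. The immune subunits had 13.5 to 43.7%, on 18 to 170 counts per mouse.

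To set the members that moved apart beside each other, the 100 bases before the RefSeq start (GRCm38.p6) are shown for a constitutive and an immune pair of catalytic genes, for Psmd8, which had the most negative change with age, and for Psmd11, the only member that was called higher at 19 mo. RefSeq promoter windows of 250 bases before to 50 bases after the start were at hand for 38 of the 45 members, not for Psma8, Psmb1, Psmb2, Psmb7, Psmc3, Psmd3 and Psmd7. Capitals mark matches to TGANNNNGC (the antioxidant response element core, bound by NRF factors), searched on both strands. Matches after the start lie outside the printed bases. Psmb5, Psmb8 and Psmd8 had such a match, beginning at base 42, 24 and 27 from the start.
Psmb5: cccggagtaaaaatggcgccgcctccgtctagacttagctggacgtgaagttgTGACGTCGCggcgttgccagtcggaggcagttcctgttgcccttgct
Psmb6: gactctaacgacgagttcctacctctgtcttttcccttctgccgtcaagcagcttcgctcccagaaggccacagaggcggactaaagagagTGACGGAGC
Psmb8: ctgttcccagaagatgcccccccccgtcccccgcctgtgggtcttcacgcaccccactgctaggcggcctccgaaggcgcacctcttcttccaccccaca
Psmb9: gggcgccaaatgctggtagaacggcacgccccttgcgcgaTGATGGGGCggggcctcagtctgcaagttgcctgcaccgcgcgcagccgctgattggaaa
Psmd8: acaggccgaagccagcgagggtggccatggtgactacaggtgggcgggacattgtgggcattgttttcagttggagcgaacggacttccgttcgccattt
Psmd11: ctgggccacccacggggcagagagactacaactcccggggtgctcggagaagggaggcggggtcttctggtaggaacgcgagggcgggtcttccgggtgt

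These stretches lie at chr14:54617996-54618095 (minus strand) for Psmb5, chr11:70525257-70525356 (plus) for Psmb6, chr17:34198095-34198194 (plus) for Psmb8, chr17:34187331-34187430 (minus) for Psmb9, chr7:29180674-29180773 (minus) for Psmd8 and chr11:80428515-80428614 (plus) for Psmd11. Each is written 5′ to 3′ on the strand of its gene. In the whole windows TGANNNNGC was found for 22 of the 38 members (57.9%) and for 12174 of 27025 genes with a window (45.0%). GAAANNGAA, the core of the interferon-stimulated response element, was found for 6 members (15.8%) and 9.76% of all genes. The immune subunits Psmb8, Psmb9 and Psmb10 had no GAAANNGAA in these windows. A match is one of letters only, and no match says only that these letters are not in this window.

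Constitutive proteasome genes were lower in old than in young WT muscle. Of the 43 members tested, 30 were lower and 1 was higher at 19 mo by edgeR's quasi-likelihood test at a Benjamini-Hochberg adjusted p under 0.05. The p-values measure the spread between these mice. Over all 13657 genes tested, 17.8% were called lower and 18.3% higher. The median log2 fold change was -0.48 over the members and 0.02 over all genes. In 32 members every 19 mo mouse was below every 3 mo mouse, which held for 21.7% of all genes. All 14 core subunits that could be tested fell, and so did 13 of the 17 subunits of the 19S particle.

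The same roles moved in V338Y muscle. There, 33 members were called lower and 1 higher at 19 mo, beside 22.5% of all 13868 genes called lower and 24.4% called higher. The median log2 fold change was -0.63 over the members and 0.07 over all genes. In 32 members the old mice lay wholly below the young mice, as in 21.9% of all genes. All 14 core subunits and 15 of the 17 subunits of the 19S particle fell. Leaving out each mouse in turn gave 28 to 31 calls in WT and 33 to 34 in V338Y mice, and Psmd12 was among the WT calls lost, without mouse 4 at 19 mo (adjusted p = 0.0592). Without mice 2 and 5 of the old V338Y group, an alternative chosen after the data were seen, 32 members were lower and 1 was higher.

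**Figure D1:**
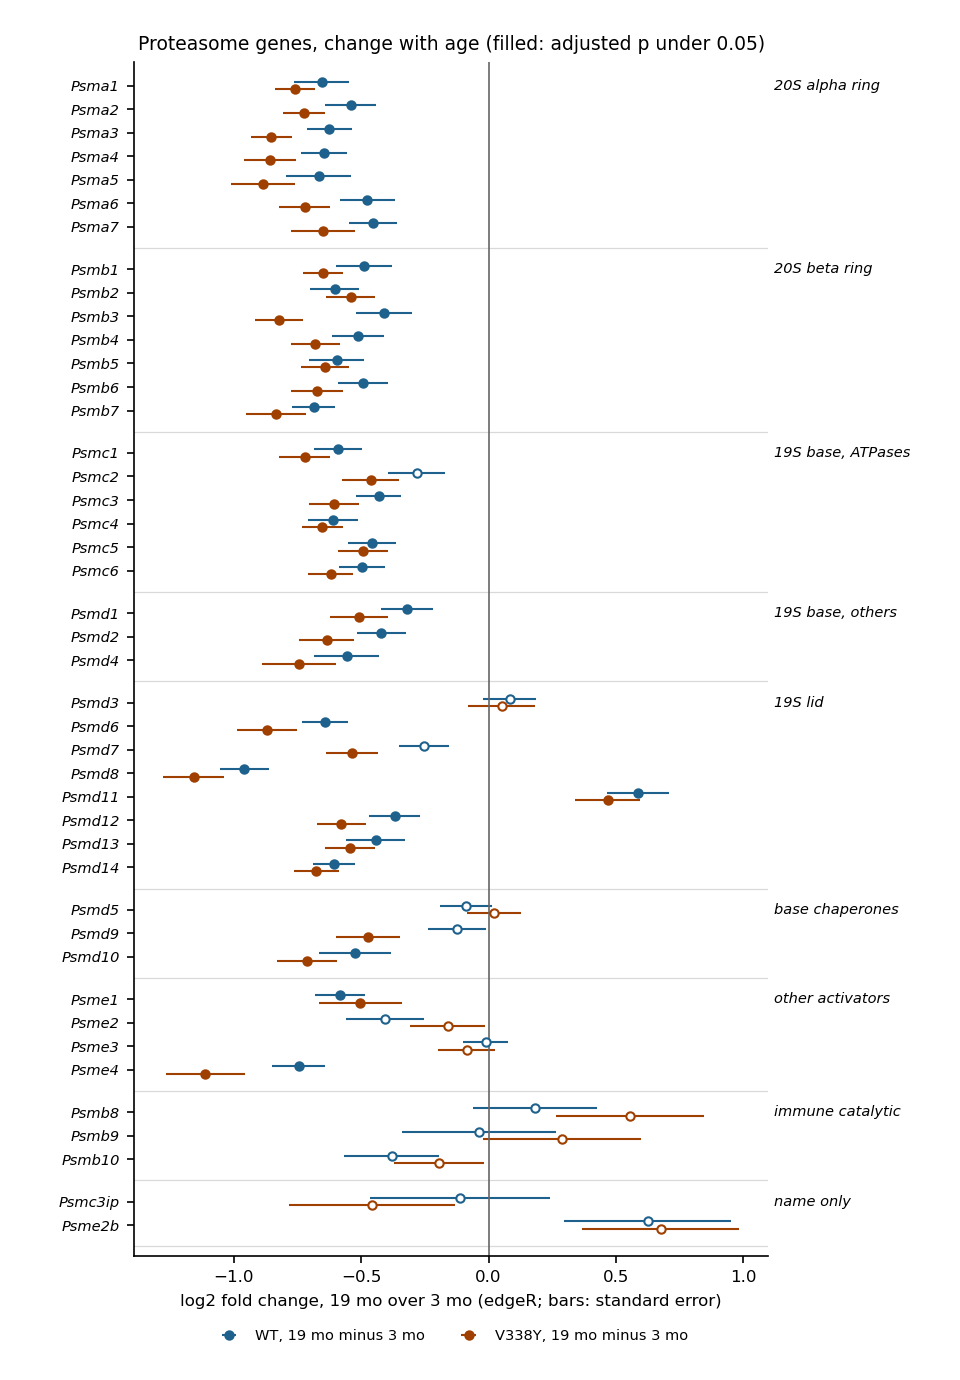
Log2 fold change from 3 to 19 mo (x axis) of the 43 tested members, grouped by role (y axis), with standard errors from edgeR, in WT (blue) and V338Y mice (brown); filled points have an adjusted p under 0.05. Core and 19S subunits lie left of 0 in both genotypes except Psmd3 and Psmd11, and the immune subunits have open points with wide errors around 0.

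As a summary for each mouse, the level of each of the 31 tested core and 19S subunits was divided by its mean in the 3 mo WT mice, and the median over the subunits was taken. It was 92.4, 97.7, 112 and 100.6% in the 3 mo WT mice and 96.9, 107, 104 and 93.5% in the 3 mo V338Y mice. It was 72.4, 72.2 and 66.3% in the 19 mo WT mice and 61.4, 64.2, 65.9 and 58.8% in the 19 mo V338Y mice. The young groups overlapped throughout, both old groups lay well below them, and the old V338Y mice lay just below the old WT mice. Mice 2 and 5, which had the highest erythroid sums, were the lowest of the old V338Y mice here, and their muscle fibre genes summed to 177020 and 197223 CPM. The part of the cell mixture in this order was not tested.

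**Figure D2:**
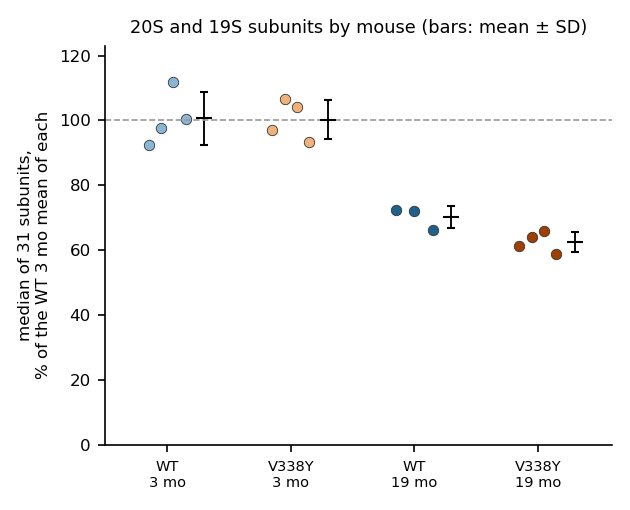
Median level of 31 core and 19S subunits in each mouse (y axis, percent of each subunit's mean in 3 mo WT mice) for the 4 groups (x axis), with 1 point per mouse and bars for the mean and SD. The 3 mo mice lie at 92.4 to 112% and the 19 mo mice at 58.8 to 72.4%.

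Among the alpha subunits, which form the outer rings and the gate, all 7 tested fell in both genotypes, from Psma7 to Psma5. Psma5 was at 43.1, 43.1, 58.9 and 48.8 CPM in 3 mo WT mice and at 31.9, 31.1 and 28.5 CPM in 19 mo WT mice. It was at 44.1, 57.6, 54.4 and 46.1 CPM in 3 mo V338Y mice and at 26.6, 24.2, 31.6 and 25.9 CPM in 19 mo V338Y mice. The ages did not overlap in either genotype. The log2 fold change of Psma5 was -0.67 ± 0.13 (SE) in WT (adjusted p = 0.00415) and -0.89 ± 0.13 in V338Y mice (adjusted p = 0.00056). Psma7 had the smallest change of the ring, at -0.45 ± 0.09 in WT (adjusted p = 0.00636) and -0.65 ± 0.13 in V338Y mice (adjusted p = 0.00269).

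The constitutive beta subunits fell together as well, the catalytic ones included. Psmb5, the chymotrypsin-like subunit, was at 36.1, 31.3, 37.7 and 38.9 CPM in 3 mo WT mice and at 21.6, 24.6 and 25.2 CPM in 19 mo WT mice. V338Y mice had 36.8, 41.7, 39.0 and 33.7 CPM at 3 mo and 24.8, 23.7, 24.5 and 23.0 CPM at 19 mo. Every old mouse was below every young one. Psmb5 changed by a log2 fold change of -0.60 ± 0.11 in WT (edgeR adjusted p = 0.00335) and -0.64 ± 0.09 in V338Y mice (adjusted p = 0.000615).

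Psmb6 fell from 109 ± 6.94 (SD, n = 4) to 77.0 ± 7.80 CPM (n = 3) in WT and from 107 ± 6.4 to 66.8 ± 7.28 CPM (n = 4 each) in V338Y mice. Its log2 fold changes were -0.49 ± 0.10 (adjusted p = 0.00546) and -0.67 ± 0.10 (adjusted p = 0.000774). Psmb7 had the largest change of the ring, with 178, 197, 202 and 195 CPM in young and 124, 119.7 and 115 CPM in old WT mice. The groups were far apart, and the log2 fold change was -0.69 ± 0.08 (adjusted p = 0.000564). In V338Y mice Psmb7 was at 184, 206, 196 and 188 CPM at 3 mo and 111, 116, 117 and 85.8 CPM at 19 mo, a log2 fold change of -0.83 ± 0.12 (adjusted p = 0.000537). Mouse 5 had the lowest Psmb7. The smallest changes of the ring were those of Psmb3, a structural subunit, in WT (-0.41 ± 0.11, adjusted p = 0.0184) and of Psmb2, another structural subunit, in V338Y mice (-0.54 ± 0.10, adjusted p = 0.00189). Without WT mouse 5 at 19 mo, the adjusted p of Psmb3 was 0.0502.

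No immune subunit was called in either age comparison, and each had ages that overlapped. Psmb8 replaces Psmb5. It was at 4.47, 3.83, 3.98 and 6.71 CPM in young and 4.35, 6.82 and 4.88 CPM in old WT mice. In V338Y mice it was at 7.70, 4.57, 4.8 and 5.42 CPM at 3 mo and at 13.7, 5.83, 7.13 and 6.62 CPM at 19 mo. Mouse 2 had the highest Psmb8 of all 15 mice, and the other 3 old V338Y mice lay within the span of the young ones. The log2 fold change with age was 0.18 ± 0.24 in WT (adjusted p = 0.582) and 0.55 ± 0.29 in V338Y mice (adjusted p = 0.14), and without mouse 2 it was 0.21 in V338Y mice.

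Psmb9, which replaces Psmb6, had 2.22 ± 0.65 and 2.14 ± 0.53 CPM in young and old WT mice (SD, n = 4 and 3), and 3.05 ± 1.05 and 3.78 ± 1.34 CPM in young and old V338Y mice (n = 4 each). Its log2 fold changes were -0.04 ± 0.30 (adjusted p = 0.932) and 0.29 ± 0.31 (adjusted p = 0.47), and the latter was -0.15 without mice 2 and 5. Psmb10, which replaces Psmb7, had 6.61 ± 1.36 and 5.05 ± 0.68 CPM in young and old WT mice, and 8.04 ± 1.22 and 6.99 ± 1.55 CPM in young and old V338Y mice. Its log2 fold changes were -0.38 ± 0.19 (adjusted p = 0.139) and -0.19 ± 0.18 (adjusted p = 0.388). Of the tested leukocyte genes, 3 of 8 were called higher with age in WT mice and 8 of 10 in V338Y mice. Their part in the levels of the immune subunits was not tested.

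**Figure D3:**
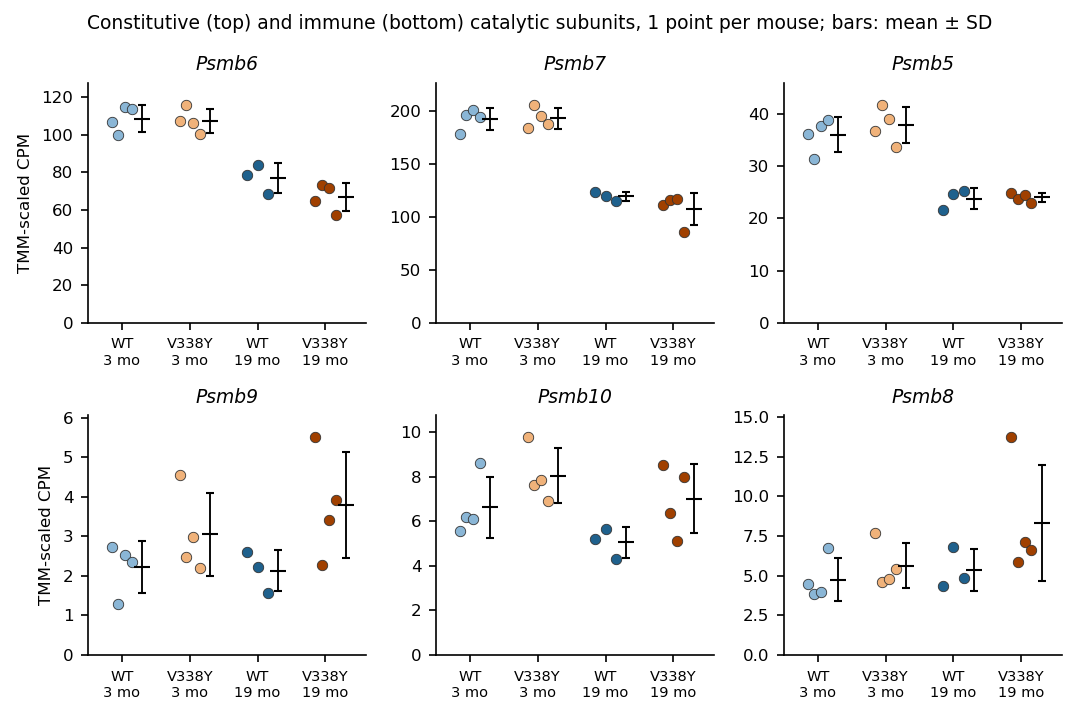
TMM-scaled CPM (y axes, from 0) of the constitutive catalytic subunits Psmb6, Psmb7 and Psmb5 (top) and of Psmb9, Psmb10 and Psmb8, which take their places (bottom), in the 4 groups (x axes), with 1 point per mouse and bars for the mean and SD. Points of 3 and 19 mo are apart in the top row and overlap in the bottom row, where 1 old V338Y mouse reaches 13.7 CPM of Psmb8.

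The counts of an immune subunit were also set against those of its partner in the same mouse. These percentages are not scaled for length and serve only to compare mice. Psmb8 had 12.4, 12.2, 10.6 and 17.2% of the counts of Psmb5 in young WT mice and 20.2, 27.7 and 19.3% in old WT mice. In V338Y mice it had 20.9, 11, 12.3 and 16.1% at 3 mo and 55.2, 24.6, 29.1 and 28.8% at 19 mo. The ages were apart in both genotypes, by a small margin in WT mice. The medians of Psmb9 to Psmb6 were 2.14% in young WT, 2.65% in old WT, 2.49% in young V338Y and 5.80% in old V338Y mice. Those of Psmb10 to Psmb7 were 3.13%, 4.21%, 3.86% and 6.57% in the same order. In each of these pairs the ages overlapped in WT and in V338Y mice. In V338Y mice Psmb9 had 2.14 to 4.23% of Psmb6 at 3 mo and 3.11 to 8.49% at 19 mo. Psmb10 had 3.68 to 5.32% of Psmb7 at 3 mo and 4.37 to 9.29% at 19 mo in V338Y mice. As the denominators fell with age in all 3 pairs, a higher percentage does not show a higher immune subunit.

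In the 19S base, 5 of the 6 ATPases fell in WT and all 6 in V338Y mice. Psmc4 had the largest change of the ring in WT, from 76.0 ± 6.95 to 49.7 ± 2.98 CPM, a log2 fold change of -0.61 ± 0.10 (adjusted p = 0.00199), and Psmc1 in V338Y mice, at -0.72 ± 0.10 (adjusted p = 0.000515). Psmc2 had the smallest, at -0.28 ± 0.11 in WT (adjusted p = 0.0748) and -0.46 ± 0.11 in V338Y mice (adjusted p = 0.00799). In WT mice Psmc2 did not pass the threshold although its ages did not overlap. The ubiquitin receptor Psmd4 and the scaffold subunits Psmd1 and Psmd2 fell in both genotypes. Psmd4 changed most, by -0.56 ± 0.13 in WT (adjusted p = 0.00953) and -0.74 ± 0.14 in V338Y mice (adjusted p = 0.00276). Psmd1 changed least, by -0.32 ± 0.10 (adjusted p = 0.0364) and -0.51 ± 0.11 (adjusted p = 0.00579), and its call in WT mice was lost in 5 of the 7 fits with 1 mouse left out, with an adjusted p of up to 0.0925.

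Among the members that were called, the lid held the most negative change and the only positive one. Psmd8, a lid subunit, was at 202, 196, 241 and 214 CPM in young and 108, 113 and 108 CPM in old WT mice. V338Y mice had 172, 172, 206 and 167 CPM at 3 mo and 69.8, 72.3, 89.0 and 87.6 CPM at 19 mo. All old mice of each genotype were far below all young ones. Psmd8 changed by -0.96 ± 0.10 on the log2 scale in WT (edgeR adjusted p = 0.000262) and -1.16 ± 0.12 in V338Y mice (adjusted p = 0.000145).

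Psmd11, a scaffold subunit of the lid, went the other way. It was at 56.7, 60.9, 70.1 and 60.2 CPM in young and 84.1, 85.0 and 110.0 CPM in old WT mice. V338Y mice had 56.8, 58.5, 61.7 and 54.6 CPM at 3 mo and 64.7, 74.3, 97.8 and 80.6 CPM at 19 mo. Every old mouse was above every young one of its genotype. It rose by a log2 fold change of 0.59 ± 0.12 in WT (adjusted p = 0.00596) and 0.47 ± 0.13 in V338Y mice (adjusted p = 0.0134), and each fit with 1 mouse left out kept both calls. Psmd3, another lid subunit, had 58.4 ± 6.52 and 61.8 ± 2.70 CPM in young and old WT mice, and its log2 fold change was 0.08 ± 0.10 in WT (adjusted p = 0.555) and 0.05 ± 0.13 in V338Y mice (adjusted p = 0.763). Psmd7, a lid subunit named here after its values were seen, was at -0.25 ± 0.10 in WT (adjusted p = 0.0707) and fell by 0.54 ± 0.10 on the log2 scale in V338Y mice (adjusted p = 0.00256).

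Of the base chaperones, which guide assembly of the ATPase ring and leave the finished particle, Psmd10 fell in both genotypes, with log2 fold changes of -0.52 ± 0.14 in WT (adjusted p = 0.0191) and -0.71 ± 0.12 in V338Y mice (adjusted p = 0.0013). Its call in WT mice was lost without mouse 4 or mouse 5 at 19 mo, with an adjusted p of up to 0.0672. Psmd5 had -0.09 ± 0.10 in WT (adjusted p = 0.531) and 0.02 ± 0.11 in V338Y mice (adjusted p = 0.879). Psmd9 had -0.12 ± 0.11 in WT mice (adjusted p = 0.415) and fell in V338Y mice, with log2 fold changes of -0.47 ± 0.12 (adjusted p = 0.0119).

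The caps and activators of the core did not move as 1 group. Psme4 (PA200) was at 795, 788, 839 and 693 CPM in young and 427, 474 and 491 CPM in old WT mice. In V338Y mice it was at 720.4, 817, 904 and 860.1 CPM at 3 mo and at 279.8, 408, 447 and 381 CPM at 19 mo. The ages were far apart, and mouse 2 of the old V338Y mice was the lowest. The log2 fold change was -0.75 ± 0.11 in WT (adjusted p = 0.00111) and -1.11 ± 0.16 in V338Y mice (adjusted p = 0.000538), second to Psmd8 among the members in V338Y mice.

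Psme1 and Psme2 encode the alpha and beta chains of PA28, the interferon-inducible cap. Psme1 was at 21.2, 19.2, 22.0 and 22.4 CPM in young and 13.6, 14.8 and 14.0 CPM in old WT mice, with no overlap, and its log2 fold change was -0.58 ± 0.10 (adjusted p = 0.0023). In V338Y mice it was at 24.8, 20.6, 25.1 and 20.5 CPM at 3 mo and at 21.8, 14.9, 13.7 and 13.5 CPM at 19 mo. Mouse 2 lay among the young mice. The log2 fold change was -0.50 ± 0.16 (adjusted p = 0.0298), and it was lost in 5 of the 8 fits with 1 mouse left out, with an adjusted p of up to 0.0804. Psme2 had -0.41 ± 0.15 in WT (adjusted p = 0.0632) and -0.16 ± 0.15 in V338Y mice (adjusted p = 0.387). Psme3, the nuclear PA28 gamma, had 27.4 ± 0.97 and 27.2 ± 1.76 CPM in young and old WT mice, a log2 fold change of -0.01 ± 0.09 (adjusted p = 0.927), and -0.08 ± 0.11 in V338Y mice (adjusted p = 0.553). Psmc3ip had -0.11 ± 0.35 and -0.46 ± 0.32 and Psme2b had 0.62 ± 0.33 and 0.68 ± 0.31 in WT and V338Y mice, each on 5 to 24 counts per mouse and with no call.

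**Figure D4:**
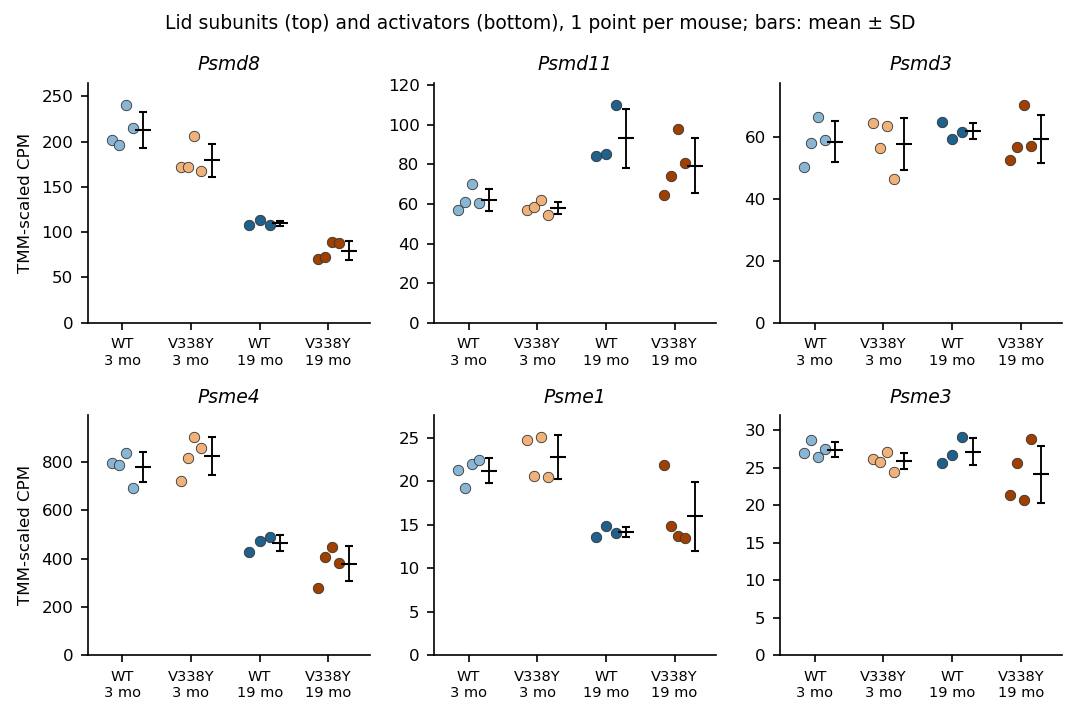
TMM-scaled CPM (y axes, from 0) of the lid subunits Psmd8, Psmd11 and Psmd3 (top) and of the activators Psme4, Psme1 and Psme3 (bottom) in the 4 groups (x axes), with 1 point per mouse and bars for the mean and SD. Psmd8 and Psme4 are lower at 19 mo, Psmd11 is higher, and Psmd3 and Psme3 overlap between ages.

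Genes that work with the proteasome were counted from 7 lists. Of the chaperones of core assembly, 2 of 5 were called lower in WT and 4 of 5 in V338Y mice, with medians of -0.44 and -0.60. Pomp, the maturation factor of the core, fell, with log2 fold changes of -0.57 ± 0.10 in WT (adjusted p = 0.00296) and -0.82 ± 0.11 in V338Y mice (adjusted p = 0.000508). Among 9 further subunits and partners of the particle, 3 and 5 were lower and none was higher. The small lid subunit Sem1 fell, with log2 fold changes of -0.53 ± 0.11 and -0.82 ± 0.09 (adjusted p = 0.00632 and 0.000171), as did Ecpas and the ubiquitin ligase Ube3c.

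The 6 shuttle factors, which bring ubiquitinated proteins to the particle, were split. Ubqln2 rose in both genotypes, by a log2 fold change of 1.79 ± 0.11 in WT and 1.90 ± 0.13 in V338Y mice, and 1 other factor fell in WT and 3 others in V338Y mice. Rad23b fell in both, with log2 fold changes of -0.65 ± 0.10 (adjusted p = 0.00169) and -0.85 ± 0.11 (adjusted p = 0.000421). Of 6 genes listed as regulators of the proteasome or of its genes, 1 was higher and 1 was lower in each genotype. Ngly1, which activates the transcription factor NRF1, fell, with log2 fold changes of -0.40 ± 0.08 (adjusted p = 0.00417) and -0.53 ± 0.11 (adjusted p = 0.0034). Akirin2 was called higher in WT (0.46 ± 0.11, adjusted p = 0.0118) and Zfand2a in V338Y mice (0.36 ± 0.13, adjusted p = 0.046). Without a call, the ages were also apart in the other genotype. Akirin2 was at 19.6 to 22.67 CPM at 3 mo and 22.74 to 34.8 CPM at 19 mo in V338Y mice. Zfand2a was at 4.97 to 6.97 CPM at 3 mo and 7.85 to 9.02 CPM at 19 mo in WT mice. The gene of NRF1 itself, Nfe2l1, looked up after the values were seen, was not called in either. The 6 ubiquitin and E1 genes had no call in WT mice, and 4 lower and 1 higher in V338Y mice, with Ubb at -0.55 ± 0.12 (adjusted p = 0.00405).

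Of 9 genes of MHC class I and its peptide loading, 1 was called lower (Calr) and none higher in WT mice, where 7 had a positive value. In V338Y mice 6 were called higher at 19 mo. Of all genes tested, 18.3% were called higher in WT and 24.4% in V338Y mice. In the interaction of age and genotype none of the 9 passed an adjusted p under 0.05 by edgeR. The peptide transporter gene Tap1, which lies between Psmb9 and Psmb8 on chromosome 17, had 0.66 ± 0.24 in WT (adjusted p = 0.0548) and rose by 1.1 ± 0.29 in V338Y mice (adjusted p = 0.0124). Of 8 interferon-gamma response genes, none was called in WT mice, and 1 higher (Nlrc5, the activator of MHC class I genes) and 1 lower (Ifngr2, a receptor chain) in V338Y mice. Without mice 2 and 5 of the old V338Y group, the calls over all 7 lists went from 10 higher and 18 lower to 3 higher and 13 lower, and Tap1 had 0.58 and was not called.

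The genotype comparisons and the test of their interaction with age use the same mice as the age comparisons, so these values are not independent of each other. At 3 mo no member differed between V338Y and WT mice at an adjusted p under 0.05, by edgeR or by DESeq2, and 10 of 13333 genes did (0.075%). At an unadjusted p under 0.05, 1 member was lower and none was higher, beside 4.67% of all genes lower and 5.03% higher. That member was Psmd8, at -0.25 ± 0.09 (unadjusted p = 0.0177, adjusted p = 0.435 by edgeR). Its mice had 196 to 241 CPM in WT and 167 to 206 CPM in V338Y mice, which overlap, and without WT mouse 3 or V338Y mouse 4 no member was lower. The median over the 31 core and 19S subunits was -0.01, with single values from -0.25 (Psmd8) to 0.08 (Psmb5). Psmb6 and Psmb7 were at -0.01 ± 0.07 and 0.01 ± 0.06. The immune subunits had 0.27 ± 0.23 (Psmb8), 0.50 ± 0.29 (Psmb9) and 0.30 ± 0.16 (Psmb10), with adjusted p of 0.744, 0.617 and 0.584. Psme1 and Psme2 had 0.11 ± 0.09 and 0.05 ± 0.10. The smallest values of the roles were 0.02 for Psma7, -0.01 for Psmb1, -0.02 for Psmc5 and for Psmd3, -0.03 for Psmd1 and 0.08 for Psmd9, and the largest 0.07 for Psma2 and for Psmd2, -0.08 for Psmc6 and 0.13 for Psmd10.

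At 19 mo no member passed an adjusted p under 0.05 either, by edgeR or by DESeq2, among 6 of 13833 genes that did (0.0434%). With the mouse number as a block, 110 genes were called and again no member. The block was fitted because same-numbered mice of this age correlated in their deviations from the group means. A differently numbered pair correlated more strongly, so these correlations do not show that the numbers pair the mice. At an unadjusted p under 0.05, 5 members were lower and 2 were higher in V338Y mice, beside 2.75% of all genes lower and 6.17% higher. Without any 1 mouse 2 to 8 members were lower and 0 to 3 higher, with no member higher without V338Y mouse 2 or 5 or without WT mouse 4 or 5, and only 2 lower without WT mouse 4. Without V338Y mice 2 and 5 together 1 member was lower. Lower in all mice were Psma3, Psmb3, Psmd7, Psmd8 and Psmd12. In each of these 5, and in 5.28% of all genes tested, every V338Y mouse was below every WT mouse. Of the 31 core and 19S subunits, 28 had a lower value in V338Y mice, with a median of -0.15 beside 0.01 over all genes. Of all genes tested, 48.4% had a lower value. The subunits were measured in the same mice, so they are not independent observations.

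Psmd8 had the largest of these differences, with 108, 113 and 108 CPM in WT and 69.8 to 89.0 CPM in V338Y mice, a log2 fold change of -0.43 ± 0.12 (unadjusted p = 0.0079, adjusted p = 0.525 by edgeR). Psmb3 had 47.6, 48.9 and 43.4 CPM in WT and 36.1, 35.3, 40.2 and 32.4 CPM in V338Y mice, a log2 fold change of -0.35 ± 0.11 (unadjusted p = 0.0137). Psma3 was at -0.24 ± 0.10. In the other roles Psmc2 was at -0.19 ± 0.13, Psmd4 at -0.21 ± 0.15 and Psmd9 at -0.25 ± 0.12. Close to 0 were Psmb2 (0.00), Psmc4 (0.03), Psmd5 (0.03) and Psmd3 (-0.04), and Psma2 and Psmd2 had the smallest values of their roles, -0.10 and -0.13.

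The immune subunits had the highest values of the members at this age. Psmb9 was at 2.61, 2.22 and 1.57 CPM in WT and 5.51, 2.28, 3.41 and 3.92 CPM in V338Y mice, and the groups overlapped by 1 V338Y mouse. The log2 fold change was 0.83 ± 0.33 (unadjusted p = 0.0357, adjusted p = 0.541). With the block it was 1.04 (adjusted p = 0.11). That fit leaves V338Y mouse 3, the overlapping mouse at 2.28 CPM, out of the contrast, so the 2 values rest on different mice. Psmb10 had 5.22, 5.63 and 4.30 CPM against 8.52, 6.37, 5.12 and 7.97 CPM, a log2 fold change of 0.49 ± 0.21 (unadjusted p = 0.0435, adjusted p = 0.554). Psmb8 had 0.66 ± 0.33 (unadjusted p = 0.0764, adjusted p = 0.578). The values depended on few mice: without mice 2 and 5 they were 0.41 for Psmb9, 0.21 for Psmb10 and 0.29 for Psmb8. Their constitutive partners had 0.04 ± 0.10 (Psmb5), -0.18 ± 0.13 (Psmb6) and -0.13 ± 0.13 (Psmb7).

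Of the activators, Psme1 had 0.20 ± 0.18, Psme2 0.30 ± 0.20, Psme3 -0.14 ± 0.13 and Psme4 -0.26 ± 0.17 in V338Y against WT mice at 19 mo. Of the 9 MHC class I genes, 6 were higher at an unadjusted p under 0.05 and none passed an adjusted p under 0.05. H2-K1 had 0.56 ± 0.17 (unadjusted p = 0.00887), and Tap1 had 3.92 to 4.96 CPM in WT and 5.30 to 13.4 CPM in V338Y mice, a log2 fold change of 0.98 ± 0.31 (unadjusted p = 0.0122). The leukocyte genes moved alike, with 6 of 10 higher at an unadjusted p under 0.05. Whether they account for the immune subunits was not tested.

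**Figure D5:**
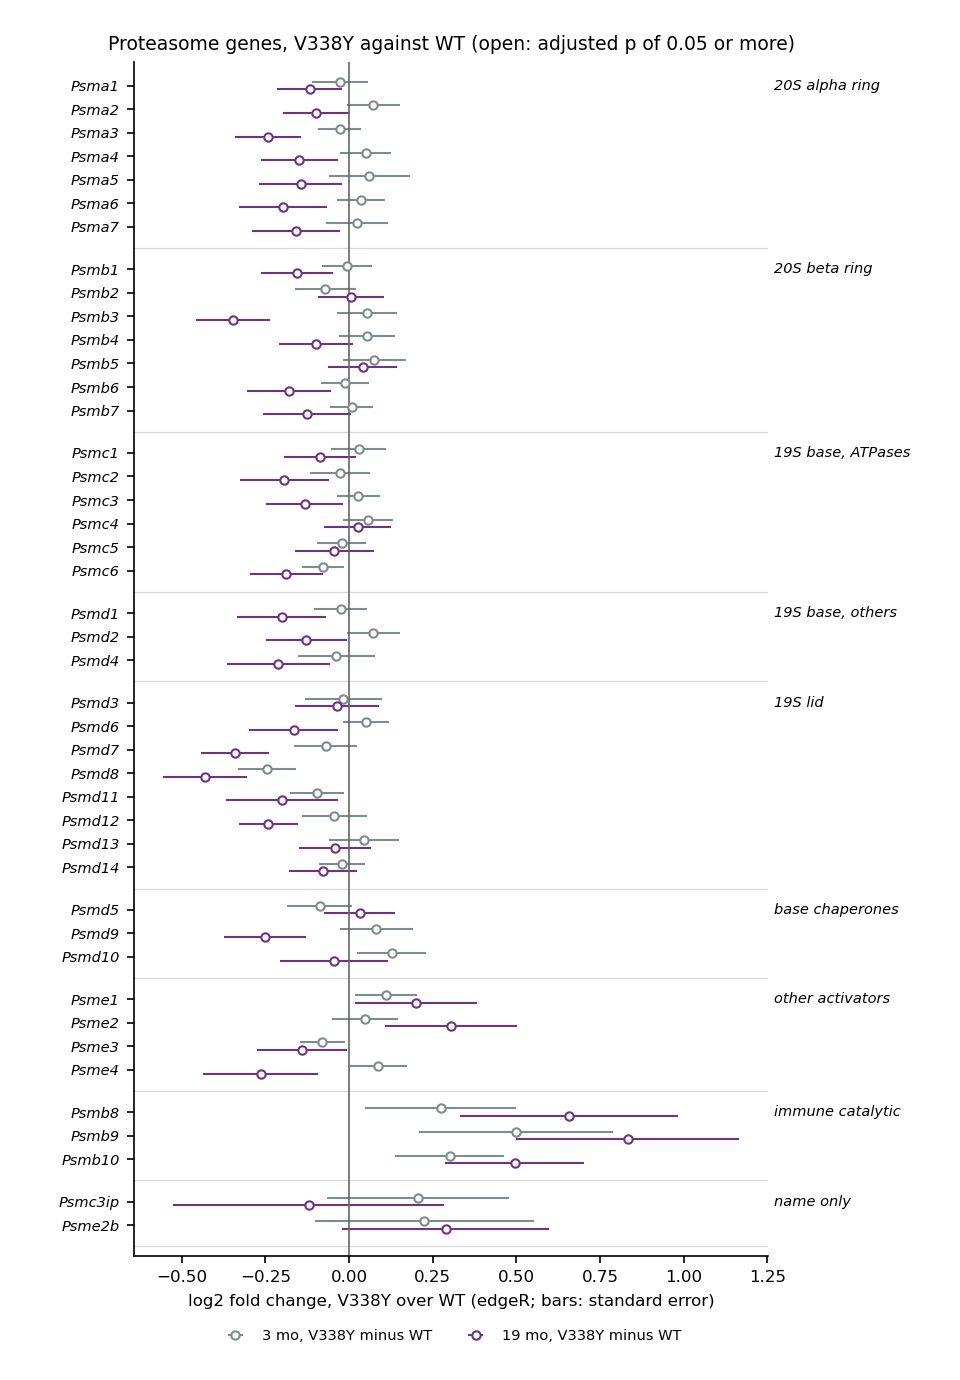
Log2 fold change of V338Y against WT mice (x axis) for the 43 tested members, grouped by role (y axis), with standard errors from edgeR, at 3 mo (grey) and 19 mo (purple). All points are open, as none has an adjusted p under 0.05; at 19 mo 28 of the 31 core and 19S subunits lie left of 0 and the 3 immune subunits lie to the right.

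Whether the change with age differed between the genotypes was tested as the interaction of age and genotype in all 15 mice. None of 14128 genes had an adjusted p under 0.05 by edgeR (0%), and no member by DESeq2, which called 26 genes. At an unadjusted p under 0.05, 3 members were lower, with 4.57% of all genes lower and 5.06% higher. They were Psmb3 at -0.43 ± 0.14 (unadjusted p = 0.00653, adjusted p = 0.405), Psma3 at -0.24 ± 0.11 (unadjusted p = 0.0427) and Psmd9 at -0.36 ± 0.16 (unadjusted p = 0.0447). Without 1 mouse these were 1 to 5 members, and 1 without V338Y mouse 2 or 5 at 19 mo. Of the 31 core and 19S subunits, 30 had a negative value, as had 51.7% of all genes tested. A negative value means a lower log2 fold change with age in V338Y than in WT mice. The median was -0.19 over these subunits, against -0.01 over all genes. Without mouse 2 or without mouse 5 the median over all 43 members went from -0.18 to -0.12.

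The 3 immune subunits had positive interaction values, 0.36 ± 0.41 (Psmb8), 0.31 ± 0.46 (Psmb9) and 0.17 ± 0.26 (Psmb10), and without mice 2 and 5 those of Psmb9 and Psmb10 were negative. Psmb5, Psmb6 and Psmb7 had -0.06 ± 0.13, -0.19 ± 0.14 and -0.16 ± 0.14. Psme1 had 0.07 ± 0.20, Psme2 had 0.23 ± 0.22 and Psme4 had -0.38 ± 0.19. The largest values of the other roles were -0.26 for Psma6, -0.19 for Psmc2, -0.22 for Psmd2 and -0.30 for Psmd7, and the smallest -0.12 for Psma1, 0.05 for Psmb2, -0.05 for Psmc5, -0.20 for Psmd4, -0.04 for Psmd3 and 0.10 for Psmd5.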

How the data were processed

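The authors prepared stranded libraries from quadriceps RNA and deposited whole-number counts per gene, taken here to be expected counts. The methods name RSEM, the labels CASAVA 1.8, bcl2fastq 1.8.4 and STAR 2.4.2a, and methods and labels also differ in the genome build, so which tool made the files is unsettled. The strand setting of the counting is not given in the sources used here. How reads of near copies were assigned is therefore unknown.

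Gene symbols and lengths came from GENCODE M21 (37607 of 39179 genes matched). Members and lists were chosen with earlier results of these data known. Named are the catalytic subunits, Psme1, Psme2, for each role the members with the largest and smallest change, members against their role, up to 3 genes from each further list, and Xist, Ddx3y and Mrps5. A minimum of 10 counts in 50% or more of a compared group was required, and the genes left were tested in R 4.3.3 with edgeR 4.0.16 (TMM, quasi-likelihood, Benjamini-Hochberg over all genes), fitted to the groups compared. DESeq2 1.42.0 and further settings were alternatives. Standard errors are the log2 fold change over the root of F. The code was tested on simulated counts. Mrps5, which a base exchange does not remove, had 21.2 to 27.5 CPM at 3 mo and 15.0 to 19.3 CPM at 19 mo. It was called lower with age in both genotypes, with log2 fold changes of -0.42 in WT and -0.55 in V338Y mice. Between genotypes it was not called at either age.

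The mice have no batch in their labels, and mice of a group differed beyond counting noise. Same-numbered mice correlated in deviation from their group means at 0.132 to 0.400 in 3 pairs at 19 mo. This met the threshold set for pairing, over 0.1 in every pair, which the other comparisons did not meet. The 9 differently numbered pairs at 19 mo had -0.407 to 0.467, so these values do not show that the numbers pair the mice. Protein identities planned for the catalytic pairs were not made. A further planned motif is not reported here.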

Additional observations from a re-analysis of the deposited data

Results flagged for a closer look

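In 156 sets of 4 mice, 10 values lay far from the other 3 by Dixon's test at the 95% level, which chance alone would mark in about 1 of 20 sets. Among the members in V338Y mice at 19 mo, mouse 2 had 13.7 CPM of Psmb8, against 7.13 CPM in the next mouse, 55.2% of Psmb8 to Psmb5, against 29.1%, and 21.8 CPM of Psme1, against 14.9 CPM. In V338Y mice at 3 mo, Psmd2 was at 269.7 CPM in 1 mouse and 312 CPM in the next, and Psmd8 at 206 CPM in 1 mouse and 172 CPM in the next. In WT mice at 3 mo, Psmb10 reached 4.43% of Psmb7 in 1 mouse, against 3.14%. Of the gene lists, the neutrophil genes summed to 606 CPM in mouse 5 of the old V338Y mice, the erythroid genes to 322 CPM in 1 young WT mouse, and the leukocyte and MHC class I genes to 160.1 and 545 CPM in 1 young V338Y mouse. The causes were not tested.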

How the results depend on the processing

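Leaving out each mouse in turn moved no count of called members by more than 1.5 times, and neither did other size factors, upper-quartile scaling, DESeq2, no filter on low counts or all 15 mice in 1 fit. The replicate number as a block left 15 of 31 member calls in WT mice with age. Of the core it left 7 of 14 calls, of the 19S particle 6 of 13 and of the pathway lists 2 of 10. Only numbers 2 and 4 occur at both ages in WT mice, so this fit compares 2 pairs and the other mice do not count. Its fewer calls cannot be set apart from this loss of mice. In V338Y mice, where numbers 2, 3 and 4 occur at both ages, the block left 32 member calls, all lower. Between genotypes at 19 mo the block gave 1 call in the pathway lists and none among members. It turned no called value. Without V338Y mice 2 and 5, chosen after seeing the data, the pathway lists had 16 calls with age in V338Y mice, against 28. The causes were not tested. In 9 cases a pseudocount in the ratios of immune to constitutive subunits moved a group mean by more than its SD. Values of low counts limit the immune subunits.

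No reversed value had passed the threshold. With the replicate block, Psmb9 and Psmc3ip had 0.47 and 0.096 with age in WT mice, and at 19 mo Psmb2 had -0.0046 and Psmd5 -0.014. Psmb1 at 3 mo had 0.0050 with upper-quartile factors. Psmb2 at 19 mo had -0.0047 with RLE factors, -0.0061 with DESeq2, -0.025 without the filter and -0.024 in the fit of all mice, and Psmc4 had -0.0033 and -0.0025 in the last 2. Without V338Y mice 2 and 5, Psmb9 had -0.15 with age, Psmd3 and Psme2b had 0.062 and -0.012 at 19 mo, and the interaction values were -0.087 (Psmb10), -0.085 (Psmb9), 0.11 (Psmc5), 0.079 (Psmd3), -0.070 (Psme1) and -0.23 (Psme2b).

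Leaving out 1 mouse turned the sign of further small values, whose ranges on the log2 scale were as follows. The ranges with age in WT mice were -0.072 to 0.023 for Psme3, -0.043 to 0.39 for Psmb8, -0.24 to 0.12 for Psmb9 and -0.33 to 0.16 for Psmc3ip. The ranges with age in V338Y mice were -0.045 to 0.072 for Psmd5 and -0.045 to 0.10 for Psmd3. The ranges between genotypes at 3 mo were -0.045 to 0.060 for Psmb1, -0.021 to 0.11 for Psme2, -0.023 to 0.087 for Psma7, -0.026 to 0.034 for Psmb7, -0.052 to 0.017 for Psmb6, -0.056 to 0.036 for Psmc5, -0.074 to 0.036 for Psmd1 and -0.080 to 0.071 for Psmd3. The ranges between genotypes at 19 mo were -0.033 to 0.051 for Psmb2, -0.14 to 0.014 for Psmd3, -0.011 to 0.074 for Psmd5, -0.40 to 0.095 for Psmc3ip, -0.0064 to 0.080 for Psmc4 and -0.021 to 0.087 for Psmb5. The ranges for the interaction were -0.10 to 0.039 for Psmc5, -0.13 to 0.029 for Psmd3, -0.096 to 0.17 for Psme1, -0.21 to 0.21 for Psme2b, -0.12 to 0.010 for Psmb5 and -0.0058 to 0.12 for Psmb2.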
